A study of Mus musculus with 2 samples.

Results

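The 10 circadian clock genes described here are Arntl, Clock, Per1, Per2, Per3, Cry1, Cry2, Nr1d1, Dbp and Ciart. They were chosen by name, and all 10 were found by symbol among the 28693 genes listed. Their levels were measured in dispersed cells of whole pituitary glands from individually housed male C57BL/6 mice aged 7 weeks, with no treatment and no second genotype. There were 2 libraries, each from 1 pool of 3 glands, made with a droplet method that counts captured transcripts by a unique molecular identifier (UMI) near their 3′ end. The glands were digested with enzymes for 4 h before capture. The sources used here do not give the hour of the day at which they were taken. Replicates are the 2 pools, so every value rests on 2 libraries and an interval or SD says nothing about single animals.

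In the mammalian clock, the proteins of Clock and Arntl (also called Bmal1) pair and switch on genes that carry an E-box, among them the Per and Cry genes. The PER and CRY proteins return to the nucleus and block that pair. The nuclear receptor encoded by Nr1d1 (REV-ERB alpha) represses Arntl, Dbp encodes an output factor that binds D-boxes, and the Ciart protein (CHRONO) is a further repressor of the CLOCK and BMAL1 pair. In the intact animal the transcripts of the activator Arntl and of Nr1d1, Dbp and the Per genes peak at opposite hours, and Per1 is also switched on quickly by cyclic AMP and glucocorticoids.

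After filtering, 6011 cells in library 1 and 6523 in library 2 were used, and the 2 libraries held 70813117 and 78861988 UMIs over all barcodes, with medians of 10128 and 10636 per barcode. The libraries shared 54 barcode sequences. Clustering on fixed cell type markers gave 11 classes, of which 5 make hormones (somatotrope-, lactotrope-, gonadotrope-, corticotrope- and melanotrope-like) and 6 do not define themselves by one (stem-, endothelial-, fibroblast-, macrophage- and pituicyte-like, and cycling cells). They held between 55 pituicyte-like and 6174 somatotrope-like cells, while 694 cells in mixed or unclear clusters stayed unnamed. The classes were made on and named from these markers, so marker levels describe the labels and are no check of them. Corticotrope-like cells carried Crhr1 at 195 CPM and Tbx19 at 237 CPM but no Pax7, which melanotrope-like cells carried at 74.1 CPM. Stem-like cells carried Sox2 at 284 CPM and Sox9 at 130 CPM. Pituicyte-like cells had less Sox2, at 90.7 CPM, and more Sox9, at 163 CPM. The fibroblast-like class also held pericyte markers, and in 77.3% of the cycling cells more than 30% of all UMIs came from Gh, the growth hormone gene. A further 89 cells whose leading genes were shared with the corticotrope-like class were not assigned to it.

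The deposited positions (mm10) put each gene on its own locus, but 4 of the 10 overlap another listed gene. Nr1d1, on chromosome 11, overlaps Thra on the opposite strand, Dbp overlaps Sphk2, Ciart overlaps C920021L13Rik, and Per3 overlaps Camta1 on the same strand. No source used here gives whether the counting used strand, and the levels of these 4 are uncertain by what the partner may add. Thra, the thyroid hormone receptor gene, was highest in corticotrope-like cells at 116 ± 10.6 CPM and stem-like cells at 100 ± 2.12 CPM (SD, n = 2 libraries). The same 2 classes were highest for Nr1d1, in the other order. Below them the orders differed: lactotrope-like cells, low for Nr1d1 at 25.5 ± 2.32 CPM, had 75.9 ± 7.69 CPM of Thra. What Thra may add to Nr1d1 was not tested, and the levels of the other partners are not given here.

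RefSeq promoters (GRCm38.p6, 250 bases before to 50 after each start) were at hand for 9 of the 10 genes, 13 promoters in all, and there was no entry for Per2. Each was searched on both strands for the E-box CACGTG, the D-box TTANGTAA and the REV-ERB core site AGGTCA, and no match overlapped another. The core site was searched without its flanking bases, so a match is no more than this short sequence. Whether REV-ERB binds at any match was not tested. The promoters of Ciart, Cry1 and Per1 held an E-box, and that of Per3 held 2 D-boxes. Of 32851 RefSeq promoters of this length, 7.15% hold an E-box and 2.32% a D-box. Ciart held 3 E-boxes, whose first bases lie 116, 58 and 44 bases before its start, and 29 of the 32851 promoters (0.0883%) hold 3 or more. These 4 promoters are shown because they are the ones that held an E-box or a D-box. Capitals mark the E-boxes in Ciart, Cry1 and Per1, the D-boxes in Per3, and in Per1 also the core site on the other strand, TGACCT.
Ciart (chr3:95882179-95882478, minus strand): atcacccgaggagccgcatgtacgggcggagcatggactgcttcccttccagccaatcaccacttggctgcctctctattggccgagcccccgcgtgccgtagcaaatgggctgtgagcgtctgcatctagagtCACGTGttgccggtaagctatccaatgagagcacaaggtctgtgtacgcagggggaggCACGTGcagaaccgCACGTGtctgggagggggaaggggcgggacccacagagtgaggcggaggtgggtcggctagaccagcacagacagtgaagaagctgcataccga
Per1, first promoter (chr11:69098699-69098998, plus strand): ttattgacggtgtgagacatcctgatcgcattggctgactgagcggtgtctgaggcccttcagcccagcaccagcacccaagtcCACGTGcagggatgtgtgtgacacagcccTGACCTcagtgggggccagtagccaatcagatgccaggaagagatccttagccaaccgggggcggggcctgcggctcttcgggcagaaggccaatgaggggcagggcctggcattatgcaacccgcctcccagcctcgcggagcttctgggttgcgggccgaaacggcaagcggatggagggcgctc
Cry1 (chr10:85185005-85185304, minus strand): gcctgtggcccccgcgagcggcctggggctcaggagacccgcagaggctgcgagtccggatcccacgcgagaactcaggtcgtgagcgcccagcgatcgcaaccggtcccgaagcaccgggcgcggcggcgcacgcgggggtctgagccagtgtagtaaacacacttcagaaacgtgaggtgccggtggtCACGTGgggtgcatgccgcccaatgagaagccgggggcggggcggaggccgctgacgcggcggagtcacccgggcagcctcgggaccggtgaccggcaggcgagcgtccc
Per3 (chr4:151044616-151044915, minus strand): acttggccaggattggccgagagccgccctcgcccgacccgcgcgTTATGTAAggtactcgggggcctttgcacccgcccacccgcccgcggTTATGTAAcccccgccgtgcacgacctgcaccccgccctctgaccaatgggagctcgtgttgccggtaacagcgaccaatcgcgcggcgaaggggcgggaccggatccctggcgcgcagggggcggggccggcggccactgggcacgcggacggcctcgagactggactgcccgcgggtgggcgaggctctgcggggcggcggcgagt

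The E-box of Per1 begins 166 bases before the first of its starts and the core site begins 137 bases before it, while the E-box of Cry1 begins 60 bases before its start. The D-boxes of Per3 begin 205 and 158 bases before its start. A core site was also found in 1 of 2 Arntl promoters, beginning 31 bases after the start, and in 1 of 3 Clock promoters, 119 bases before it. In all, 16.3% of RefSeq promoters hold a core site. No match was found in the windows of Cry2, Nr1d1 and Dbp.

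**Figure D1:**
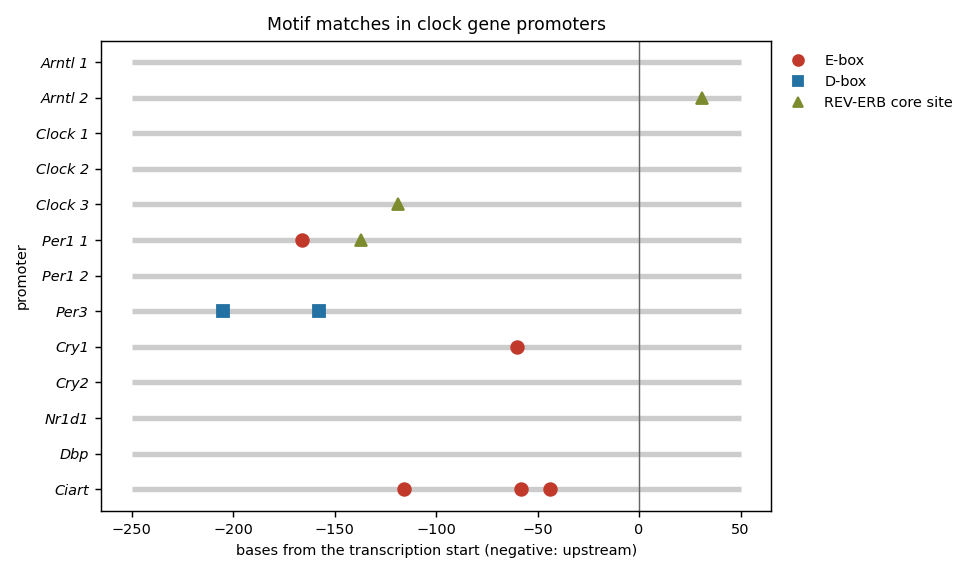
Positions of motif matches (symbols) in the 13 RefSeq promoters of 9 clock genes, each drawn as a bar from 250 bases before to 50 bases after the transcription start (x axis, bases). Ciart holds 3 E-boxes between 116 and 44 bases before its start, and Per3 holds 2 D-boxes.

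Each of the 2 activators stood apart in 1 class. Levels are given as counts per 1e6 UMIs (CPM) after scaling between libraries, and were compared between cell classes within a gene. Arntl had 25.2 and 19.3 CPM in the 2 libraries of melanotrope-like cells, the cells of the intermediate lobe. In the other 10 classes its mean lay between 3.26 CPM in endothelial-like cells and 8.96 CPM in corticotrope-like cells, and no library of these reached the melanotrope-like ones. Counts were low, with 18 UMIs in each melanotrope-like library and 9 and 17 in the corticotrope-like ones. The 95% counting intervals of these classes were 14.9 to 39.8 and 3.19 to 13.2 CPM in library 1. In library 2 they overlapped, at 11.5 to 30.5 and 6.38 to 17.5 CPM. Clock had 55.1 and 56.1 CPM in gonadotrope-like cells, which make the gonadotropins. Its means in the other classes lay between 22.3 CPM in pituicyte-like and 35.3 CPM in melanotrope-like cells, and below the first class each pair of neighbours overlapped.

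Among the repressors and outputs, corticotrope-like or stem-like cells held the highest mean for each of the 8. Corticotropes secrete the stress hormone ACTH, and stem cells line the cleft, lie scattered in the anterior lobe and can renew hormone cells. Ciart had 80.5 and 92.2 CPM in corticotrope-like cells, and the next class, macrophage-like cells, had 18.8 and 37.7 CPM. Per3 had 182 and 181 CPM in corticotrope-like cells and 96.9 and 80.4 CPM in somatotrope-like cells, which came next. Cry2 had 44.1 and 44.5 CPM in corticotrope-like cells, also followed by somatotrope-like cells with 25.3 and 28.8 CPM. In each of these 3 genes the corticotrope-like libraries lay above every library of the other 10 classes.

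Per1 was also highest in corticotrope-like cells. It had 72.8 and 95.4 CPM in corticotrope-like cells, 51.5 and 66.5 CPM in stem-like cells and 31.6 and 39 CPM in somatotrope-like cells, with no overlap between these 3 classes. Cry1 had 24.8 and 23.9 CPM in corticotrope-like cells, and the somatotrope-like cells below them had 12.9 and 18 CPM. It was not seen in fibroblast-like cells, where 0 UMIs in both libraries allow up to 3.41 CPM, at least 4.37-fold lower than the mean of the hormone classes.

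Dbp, Nr1d1 and Per2 were highest in stem-like cells. Dbp had 335 and 293 CPM there, against 263 and 223 CPM in corticotrope-like cells, and between 130 and 174 CPM in each library of pituicyte-, endothelial- and fibroblast-like cells. Melanotrope-like cells had 22.4 and 18.3 CPM and cycling cells 20.8 and 24.4 CPM, the 2 lowest means. Nr1d1 had 133 and 150 CPM in stem-like cells, 86.7 and 98 CPM in corticotrope-like cells and 64.6 and 69.9 CPM in endothelial-like cells. Per2 was the least abundant member, with 284 UMIs over all classes, against 7114 for Per3. It had 11.2 and 13.7 CPM in stem-like cells, while corticotrope-like cells, the highest class for Per1 and Per3, had 0.774 and 1.29 CPM from 1 and 2 UMIs. All 10 genes passed edgeR's test for any difference among classes, as did 93% of the 12297 genes tested, so passing it sets no gene apart.

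**Figure D2:**
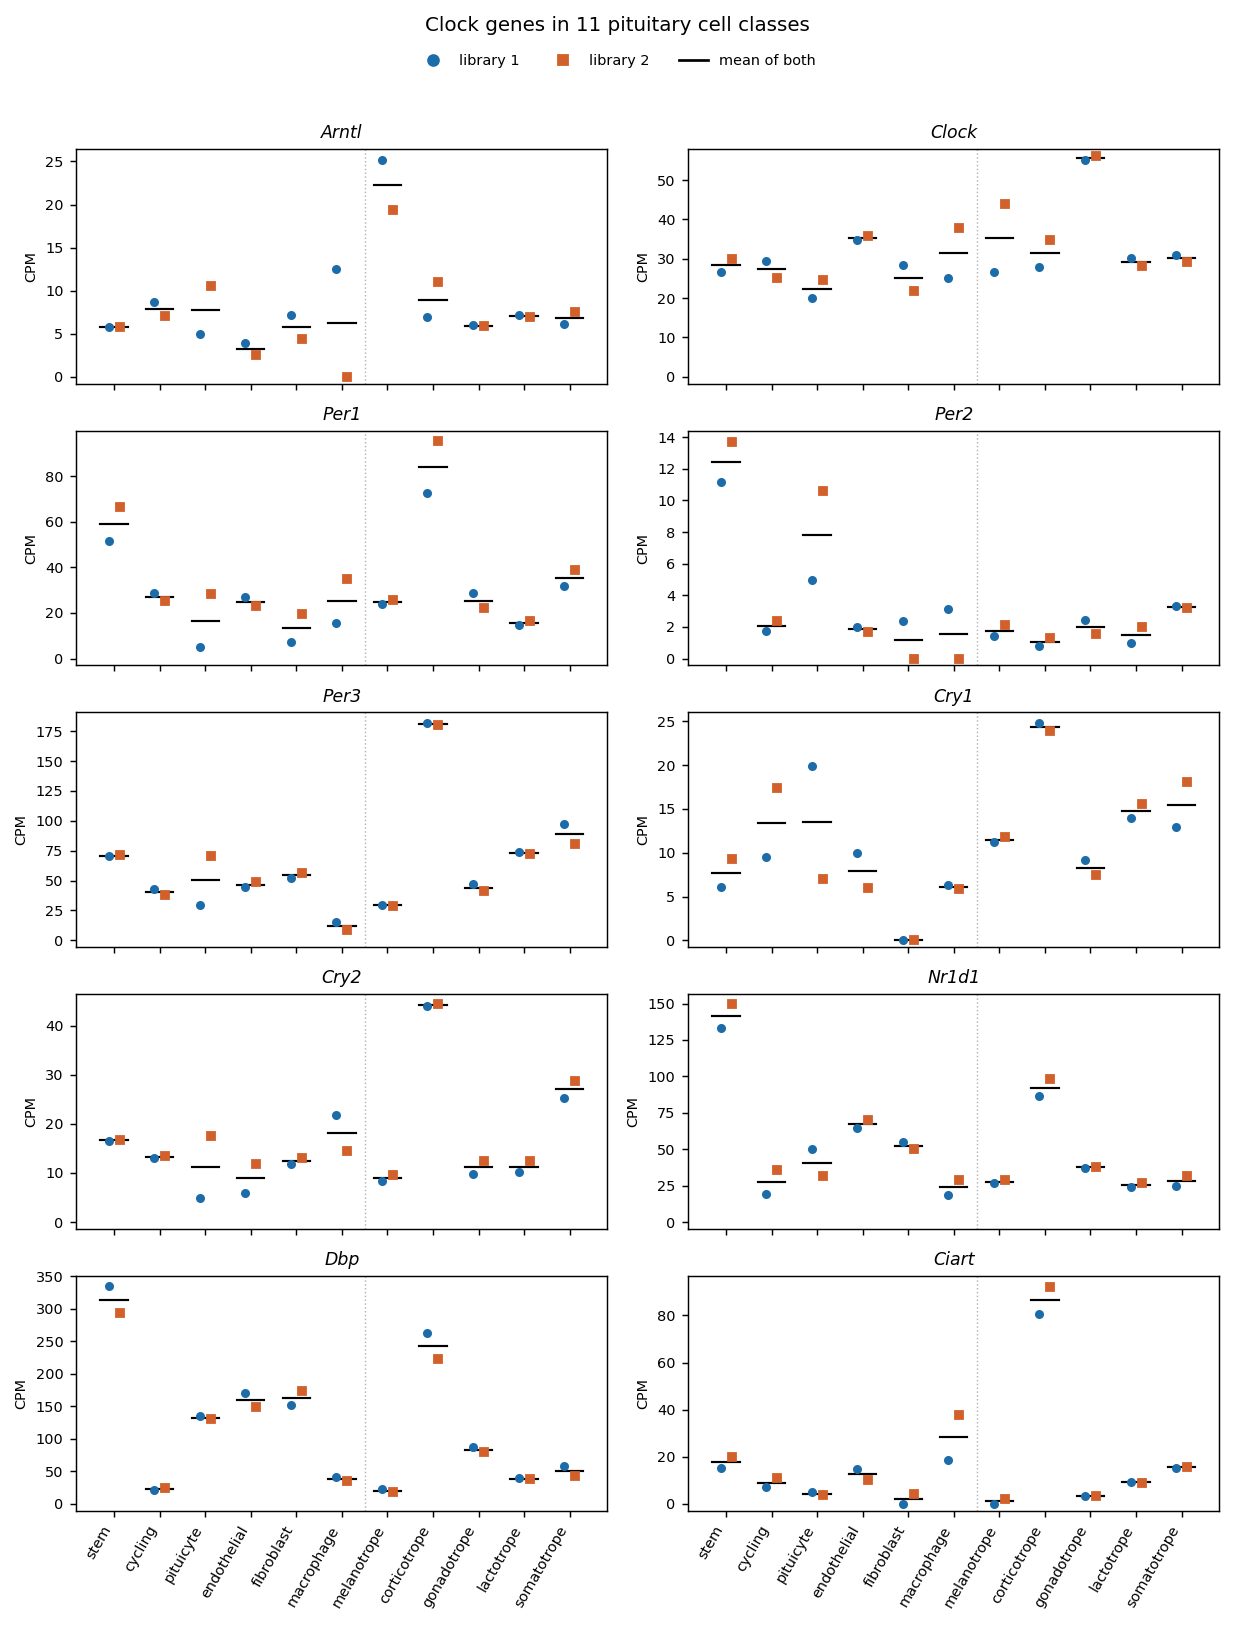
CPM (y axis, own scale for each gene) of the 10 clock genes in 11 cell classes (x axis), with circles for library 1, squares for library 2 and a line for their mean. The hormone classes stand right of the dotted line. Ciart reaches 80.5 and 92.2 CPM in corticotrope-like cells, Arntl 25.2 and 19.3 CPM in melanotrope-like cells.

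Corticotrope-like cells held more of most repressor and output transcripts than the other hormone classes. Of the 10 genes, 7 were higher and 0 lower by edgeR's quasi-likelihood test, against 16% of all 12297 genes tested that were higher and 13.5% that were lower. None of the 10 was lower at an unadjusted p under 0.05 or by DESeq2 either. Log2 fold changes are set against the equally weighted mean of the log2 levels of the 4 other hormone classes. Ciart rose most, by 4.12 ± 0.19 (SE; edgeR adjusted p = 2.09e-41). Dbp rose by 2.51 ± 0.09, Per1 by 1.80 ± 0.14, Per3 by 1.76 ± 0.10, Cry2 by 1.73 ± 0.18, Nr1d1 by 1.65 ± 0.12 and Cry1 by 0.995 ± 0.23. The activators did not pass: the difference was 0.03 ± 0.32 for Arntl and -0.21 ± 0.17 for Clock. Per2 was at -0.95 ± 0.87 and did not pass either, on 3 UMIs. The median over the 10 genes was 1.69, and over all genes tested it was -0.02.

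Stem-like cells, set against the mean of the 5 hormone classes, were higher in 5 of the 10 genes and lower in 3, against 31.8% and 26% of all genes tested. Per2 rose by 2.77 ± 0.33 on the log2 scale, Dbp by 2.38 ± 0.06, and Nr1d1 by 1.94 ± 0.08 (edgeR adjusted p = 1.26e-46). Ciart rose by 0.997 ± 0.24 in this comparison of mean log2 levels, although its mean level was 17.6 CPM in stem-like cells and 23.1 CPM over the hormone classes, whose mean holds the corticotrope-like cells. Per1 rose by 0.92 ± 0.12, a call that did not hold in the cells with few immediate early transcripts described below. Cry1 fell by 0.85 ± 0.24, Arntl by 0.62 ± 0.28 and Clock by 0.32 ± 0.14. The edgeR adjusted p was 0.0473 for Arntl and 0.0377 for Clock, and both lost the call under DESeq2, at 0.0956 and 0.108, and with totals free of hormone transcripts, at 0.0931 and 0.14.

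The 2 classes that make Pomc, the precursor of ACTH, stood at opposite ends. In melanotrope-like cells against corticotrope-like cells, 1 gene was higher and 7 were lower, with 10.4% and 10.2% of all genes tested called. Arntl was the one that rose, by 1.26 ± 0.41 (edgeR adjusted p = 0.0158), at 22.3 ± 4.15 CPM in melanotrope-like cells and 8.96 ± 2.82 CPM in corticotrope-like cells (SD, n = 2 libraries). Dbp fell by 3.58 ± 0.18, Per3 by 2.63 ± 0.18, Cry2 by 2.29 ± 0.33, Per1 by 1.77 ± 0.24, Nr1d1 by 1.74 ± 0.21 and Cry1 by 1.08 ± 0.38. Cry1 lost its call under DESeq2 (adjusted p = 0.0512), and in the low-IEG cells described below it stood at -0.36. In those cells Per1 stood at -0.94 and lost its call (edgeR adjusted p = 0.0927), while Arntl kept a fold change of 1.22 and did not pass (edgeR adjusted p = 0.195). Ciart had 2 UMIs in melanotrope-like cells and 247 in corticotrope-like cells, which puts corticotrope-like cells 71.5-fold higher with an exact 95% counting interval of 19.6 to 594. Against the other 4 hormone classes, melanotrope-like cells were higher in Arntl alone, by 1.61 ± 0.32, and lower in Per3, Cry2, Dbp and Ciart. That is 1 gene higher and 4 lower, beside 10.6% and 7.93% of all genes tested. The call of Cry2 was lost when cells were clustered on variable genes, with an edgeR adjusted p of 0.115. Cry2 at -1.40 and Ciart at -2.08 also lost their calls in the low-IEG cells, with edgeR adjusted p-values of 0.11 and 0.34. Of all genes called in melanotrope-like against the other hormone classes, 57.2% were higher with TMM scaling and 71.7% with DESeq2's size factors.

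**Figure D3:**
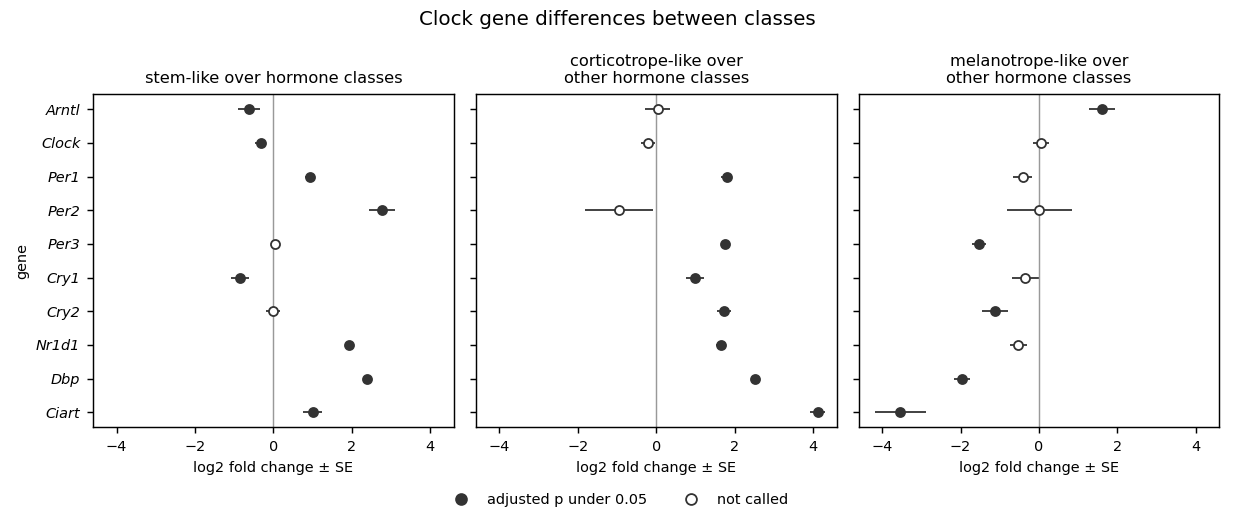
Log2 fold change with its SE (x axis) of each clock gene (y axis) in stem-like cells over the hormone classes, in corticotrope-like and in melanotrope-like cells over the other hormone classes. Filled points passed edgeR's test. Ciart stands at 4.12 in corticotrope-like cells, while Arntl is at 1.61 in melanotrope-like cells, where 4 other genes were called lower.

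The largest fold changes of the other hormone classes were smaller than those of corticotrope- and melanotrope-like cells. On the log2 scale they were -1.67 for Ciart in gonadotrope-like, -1.25 for Per1 in lactotrope-like and 1.05 for Per2 in somatotrope-like cells. Gonadotrope-like cells were higher in Clock, by 0.81 ± 0.12, and in Dbp, by 0.58 ± 0.10, and lower in Arntl, Per3, Cry1, Cry2 and Ciart. That is 2 higher and 5 lower of 10, against 20% and 15.7% of all genes tested. Clustering on variable genes ended the calls of Arntl and Ciart, with edgeR adjusted p-values of 0.0537 and 0.0627. Arntl at -0.76, Cry1 at -0.54, Cry2 at -0.59 and Ciart at -1.73 lost their calls in the low-IEG cells described below. The edgeR adjusted p-values there were 0.171, 0.228, 0.234 and 0.146. Gonadotrope-like cells had Dbp at 82.9 ± 5.29 CPM, against 88.1 ± 10.8 CPM over the other hormone classes, whose mean the corticotrope-like cells raise. Somatotrope-like cells were higher in Per2, Per3, Cry2 and Ciart and lower in Arntl, Clock, Nr1d1 and Dbp, which is 4 in each direction against 26.4% and 19.7%. Ciart is called higher on mean log2 levels, although its mean level was 15.5 ± 0.485 CPM in somatotrope-like cells and 25.0 ± 2.33 CPM over the other hormone classes, which include the corticotrope-like cells. In the low-IEG cells described below, Ciart stood at 0.50, Per2 at 0.61, Arntl at -0.44 and Nr1d1 at -0.23, and all 4 lost their calls (edgeR adjusted p from 0.193 to 0.459). Lactotrope-like cells were higher in 0 and lower in 5 of the 10 (Clock, Per1, Cry2, Nr1d1 and Dbp), against 22.6% and 18.8%. At an unadjusted p under 0.05 none of the 10 was higher there either, and DESeq2 called none higher. Clock at -0.25 and Cry2 at -0.58 lost their calls in low-IEG lactotrope-like cells, with edgeR adjusted p-values of 0.159 and 0.0923.

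Somatotropes and lactotropes arise from a shared lineage, and between them all 6 genes that passed were lower in lactotrope-like cells, against 24.3% of all genes tested that were lower and 21.3% that were higher. Cry2 had 11.3 ± 1.67 CPM in lactotrope-like cells and 27 ± 2.53 CPM in somatotrope-like cells, a fall of 1.25 ± 0.13 on the log2 scale (edgeR adjusted p = 8.74e-16). Per1 fell by 1.18 ± 0.13, Per2 by 1.08 ± 0.33, Ciart by 0.76 ± 0.15, Dbp by 0.38 ± 0.07 and Per3 by 0.27 ± 0.06. The call for Per3 was lost under DESeq2, with an adjusted p of 0.052. In the low-IEG cells described below, Ciart at -0.28, Per2 at -0.61 and Per3 at -0.24 did not pass, with edgeR adjusted p-values of 0.565, 0.386 and 0.0606. The higher share of the genes called moved to 36.2% with totals free of hormone transcripts, against 46.7% with TMM.

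Dbp was the gene that most of the non-hormone classes shared. Beside its rise in stem-like cells it was higher than in the hormone classes in endothelial-like cells by 1.41 ± 0.10, in fibroblast-like cells by 1.44 ± 0.15 and in pituicyte-like cells by 1.15 ± 0.21. It fell in cycling cells by 1.40 ± 0.18 and in macrophage-like cells by 0.67 ± 0.27, the last of which lost its call under DESeq2, with an adjusted p of 0.172. In endothelial-like cells Nr1d1 also rose, by 0.86 ± 0.14, and Arntl, Per3, Cry1 and Cry2 fell, so that 2 genes were higher and 4 lower against 28.6% and 27.5% of all genes tested. Cry1 lost its call there under DESeq2 (adjusted p = 0.0792). Arntl at -1.16, Cry1 at -0.90 and Cry2 at -0.63 lost theirs in the low-IEG cells. The edgeR adjusted p-values were 0.1735, 0.1688 and 0.3368. In fibroblast-like cells Dbp was the 1 gene higher, and Per1 and Cry1 were the 2 lower, against 19.9% and 17.1%. Cry1 lost that call when doublet calls were kept (edgeR adjusted p = 0.186). Per1, at -0.86, lost its call in the low-IEG cells (edgeR adjusted p = 0.3325). In pituicyte-like cells, glia of the posterior lobe with 22 and 33 cells, Dbp was the 1 gene called, against 11.1% of all genes tested that were higher and 11% that were lower.

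In macrophage-like cells Ciart was the 1 gene higher, with 18.8 and 37.7 CPM from 6 and 13 UMIs, and Per3 and Dbp were the 2 lower, against 18.1% and 13.7%. Per3 had 15.7 and 8.71 CPM there, its lowest class, and fell by 2.50 ± 0.38. In cycling cells 0 genes were higher and 2 lower, Per3 by 0.76 ± 0.15 and Dbp by 1.40 ± 0.18, against 19.4% and 16.6%. No further gene was higher there at an unadjusted p under 0.05, nor under DESeq2.

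Scaling moved the balance of calls over all genes in several classes. With totals free of hormone transcripts the median log2 fold change of all genes was -0.72 in macrophage-like cells, against -0.20 with TMM. DESeq2's size factors put it at 0.04 there, at 0.08 in pituicyte-like cells (-0.23 with TMM), at 0.06 in fibroblast-like cells (-0.13 with TMM) and at 0.06 in melanotrope-like cells (-0.06 with TMM). Of the genes called in macrophage-like cells 28.9% were higher with totals free of hormone transcripts and 72.4% with DESeq2, against 56.9% with TMM. In pituicyte-like cells the same scalings gave 65.1% and 71.7%, against 50.1% with TMM. With DESeq2 the share was 66.0% in fibroblast-like cells, against 53.7% with TMM, and 45.3% in somatotrope-like cells, against 57.3%. With totals free of hormone transcripts it was 40.0% in lactotrope-like cells, against 54.7% with TMM, and 65.6% in cycling cells, against 53.8%.

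Other transcription factors of the clock moved with the same classes. Of 11 listed factors 9 could be tested, and in corticotrope-like cells 8 were higher than in the other hormone classes, where 16% of all genes tested were higher. Bhlhe40 and Bhlhe41, which encode the E-box repressors DEC1 and DEC2, had 199 ± 13.6 CPM and 135 ± 25.4 CPM in corticotrope-like cells, against 24.8 ± 0.424 CPM and 42.2 ± 9.88 CPM in the other hormone classes (SD, n = 2 libraries). Nfil3, a repressor at D-boxes, had 82.9 ± 7.70 CPM in corticotrope-like cells and 19.9 ± 1.74 CPM over the other hormone classes. Rorb, a nuclear receptor of the ROR family, had 86.8 ± 6.69 CPM in corticotrope-like cells and 38.6 ± 4.48 CPM over the other hormone classes. The list's median log2 fold change was 1.02, and that of all genes tested -0.02. In melanotrope-like cells 7 of the 9 were lower than in corticotrope-like cells, against 10.2% of all genes tested, and the other 2 did not pass. Npas2 and Arntl2, which can stand in for Clock and Arntl, were too low to test, with at most 3.55 CPM in melanotrope-like cells.

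In stem-like cells 8 of these 9 factors were higher and 1, Rorb, was lower, against 31.8% and 26% of all genes tested. The PAR factors related to Dbp were among them: Hlf stood at 35.2 ± 5.22 CPM in the stem-like class and 13.8 ± 0.442 CPM over the hormone classes, and Tef at 69.9 ± 0.639 CPM in the stem-like class and 27.1 ± 0.153 CPM over the hormone classes. Rorb had 10.2 ± 4.91 CPM in the stem-like class and 48.2 ± 4.92 CPM over the hormone classes. Of 5 output genes tested, 4 were higher in stem-like cells, against 31.8% of all genes tested, and 4 in corticotrope-like cells, against 16%. Pdk4, a kinase that restrains pyruvate oxidation, had 31.2 ± 7.76 CPM in the stem-like class and 1.36 ± 0.449 CPM over the hormone classes, but 0.387 ± 0.548 CPM in corticotrope-like cells, where it did not pass. Of the 12 enzymes and ligases that modify clock proteins, 3 were higher in corticotrope-like cells, against 16% of all genes tested, and the others did not pass. In stem-like cells 4 of the 12 were higher, a share near the 31.8% of all genes tested. Usp2, a deubiquitinase, had the largest fold change of these in corticotrope-like cells, at 108 ± 5.55 CPM, against 26.1 ± 0.386 CPM in the other hormone classes. Csnk1e, a kinase of PER proteins, had the largest in stem-like cells, at 35.8 ± 2.74 CPM there and 13.2 ± 1.13 CPM over the hormone classes.

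The same 2 classes also held many immediate early transcripts, which cells make within minutes of a stimulus. The sum over 16 such genes was 8508 and 10826 CPM in corticotrope-like cells and 6980 and 7589 CPM in stem-like cells. Macrophage-like cells had 6768 and 10378 CPM, and the other 8 classes had means between 490 CPM in pituicyte-like and 3712 CPM in endothelial-like cells. Of 15 tested, 12 were higher and 1 lower in corticotrope-like cells, against 16% and 13.5% of all genes tested. In stem-like cells 13 were higher and 1 lower, against 31.8% and 26%. Junb, for example, had 2054 ± 319 CPM in corticotrope-like cells, against 318 ± 81.1 CPM in the other hormone classes. Of 10 genes induced by glucocorticoids, 8 were higher in corticotrope-like cells and 7 in stem-like cells, beside the same shares of all genes, and the others did not pass. Cdkn1a, which encodes the cell cycle inhibitor p21, had 164 ± 38.0 CPM in corticotrope-like cells, against 16.9 ± 1.65 CPM in the other hormone classes. In melanotrope-like against corticotrope-like cells, 1 of the 15 immediate early genes was higher and 10 were lower, and 9 of the 10 glucocorticoid-induced genes were lower, against 10.4% of all genes tested that were higher and 10.2% that were lower. The part of these transcripts in the class differences of the clock genes was not tested beyond the comparison that follows.

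To show the clock genes beside these transcripts within a class, the cells of each class and library were split at the median share of immediate early gene (IEG) UMIs, taken outside the hormone genes, a split added after the levels had been seen. Cells above that median are called high-IEG cells and the others low-IEG cells. The median share in corticotrope-like cells was 1.62% and 2.03% in the high-IEG cells of the 2 libraries, against 0.337% and 0.442% in the low-IEG cells. The share is a range with no gap at the split, as 57 of the 471 corticotrope-like cells lay within 20% of the cut. Median UMIs per cell were close, at 4546 and 4152 in high-IEG cells and 4133 and 4494 in low-IEG cells.

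The split is described first for corticotrope-like and stem-like cells and for the 2 classes with the most cells. Ciart was higher in the high-IEG cells of all 4. In corticotrope-like cells it had 149 and 169 CPM in high-IEG cells, against 13.1 and 27.7 CPM in low-IEG cells, a difference of 2.91 ± 0.25 on the log2 scale (edgeR adjusted p = 4.49e-28). In somatotrope-like cells it had 26.6 and 27.8 CPM in high-IEG cells, against 4.78 and 4.73 CPM in low-IEG cells. High-IEG cells were also higher in lactotrope-like cells, by 1.89 ± 0.24, and in stem-like cells, by 2.05 ± 0.35. In each of these 4 classes both high-IEG values lay above both low-IEG values.

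Per1 and Nr1d1 were also higher in the high-IEG cells of all 4. In stem-like cells Per1 had 95.6 and 120 CPM in high-IEG cells, against 15.6 and 17.7 CPM in low-IEG cells, a difference of 2.69 ± 0.20 on the log2 scale, where Ciart differed by 2.05 ± 0.35. In the same class Nr1d1 had 206 and 230 CPM in high-IEG cells, against 76 and 79.1 CPM in low-IEG cells. In corticotrope-like cells Per1 differed by 1.66 ± 0.22 and Nr1d1 by 1.28 ± 0.20 on the log2 scale. In somatotrope-like cells the differences were 1.33 ± 0.10 and 0.56 ± 0.10. Cry2 had 59.7 ± 3.44 CPM in high-IEG corticotrope-like cells, against 31.6 ± 5.23 CPM in low-IEG cells (SD, n = 2 libraries), and passed the test in somatotrope-like and lactotrope-like cells but not in corticotrope-like cells, where the edgeR adjusted p was 0.055.

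Dbp and Per3 did not pass in any of these 4 classes. In stem-like cells Dbp had 351 and 311 CPM in high-IEG cells, against 337 and 292 CPM in low-IEG cells, a difference of 0.07 ± 0.08. In corticotrope-like cells it had 262 and 204 CPM in high-IEG cells, against 279 and 252 CPM in low-IEG cells. Per3 had 175 and 176 CPM in high-IEG corticotrope-like cells, against 200.2 and 194 CPM in low-IEG cells, a difference of -0.16 ± 0.14. Arntl and Clock did not pass in any of the 4 classes either. Of the 10 genes, 3 were higher in the high-IEG cells of the corticotrope-like class by edgeR (Ciart, Per1 and Nr1d1) and the other 7 did not pass, against 2.67% of 11367 genes tested that were higher and 0.686% that were lower. The same 3 were higher in stem-like cells, against 4% of all genes tested that were higher and 3.11% that were lower. In lactotrope-like cells Cry2 was added, which makes 4, against 1.56% and 0.167%. In somatotrope-like cells 6 were higher, with Cry1 and Per2 in addition, against 5.44% and 2.16%. In gonadotrope-like cells Per1 and Nr1d1 were the 2 higher, against 1.62% of all genes tested that were higher and 0.792% that were lower, and in endothelial-like cells Per1 was the 1 higher, against 0.862% and 0.238%. In cycling cells 4 were higher, against 0.889% and 0.334%. Per3 was one of them, beside Ciart, Per1 and Nr1d1, with 74.9 and 41.1 CPM in high-IEG cells, against 14.0 and 35.9 CPM in low-IEG cells, a difference of 1.17 ± 0.32 (edgeR adjusted p = 0.0212). In fibroblast-, macrophage-, melanotrope- and pituicyte-like cells, with 55 to 245 cells each, 0 of the 10 passed edgeR's test. At an unadjusted p under 0.05 there were 2, Per3 and Arntl in macrophage-like cells. The share of all genes called in these classes is not given here, so the count of 0 says nothing particular to the clock genes. High-IEG and low-IEG cells of 1 library come from the same glands, so this compares cells within pools and not animals.

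**Figure D4:**
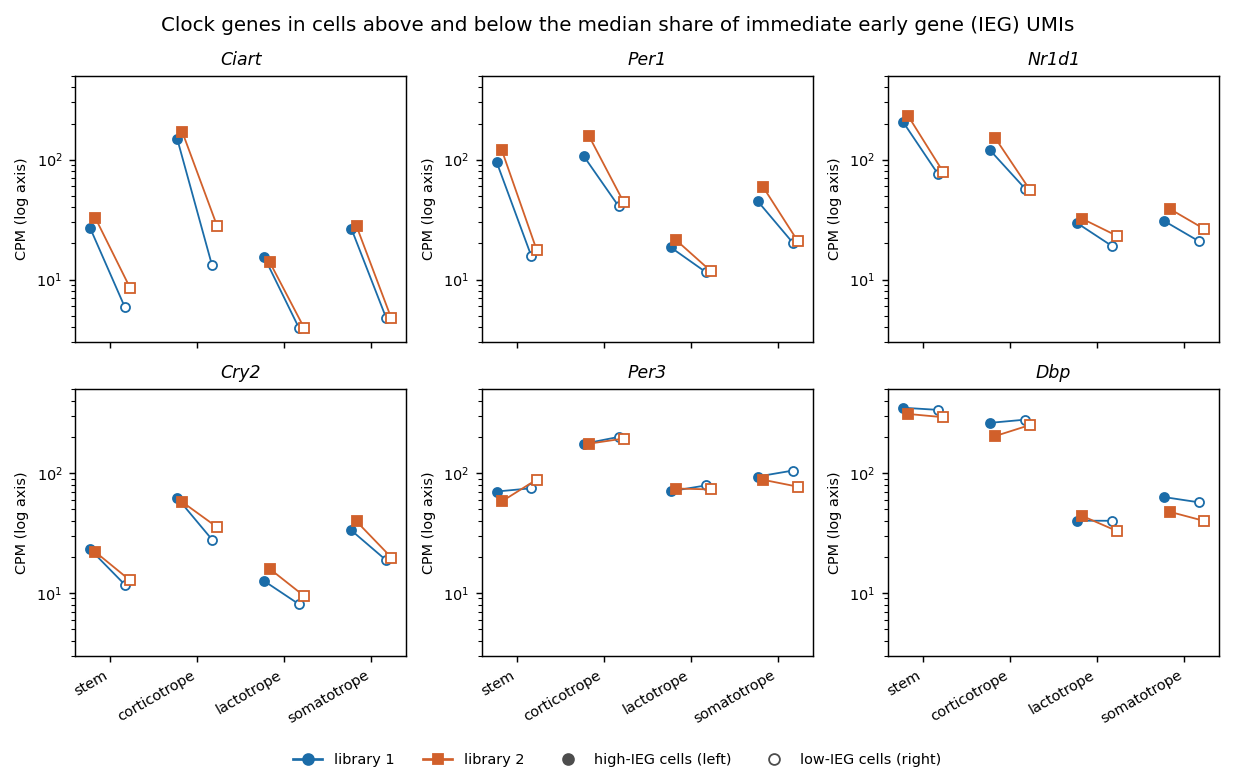
CPM (y axis, log scale) of 6 clock genes in high-IEG cells (filled, left) and low-IEG cells (open, right) of 4 classes (x axis), with a line for each library. Ciart, Per1, Nr1d1 and Cry2 lie higher in the high-IEG cells of every pair drawn, while Per3 and Dbp do not move one way in these 4 classes.

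The class differences were read again in the low-IEG cells alone. The cut was each class's own median, so immediate early levels in these cells were not matched between classes. Their immediate early sum was 2908 CPM in corticotrope-like cells, 575 CPM in somatotrope-like and 1197 CPM in lactotrope-like cells. It was 675 CPM in gonadotrope-like, 1094 CPM in melanotrope-like and 930 CPM in stem-like cells. The part of that difference in what follows was not tested. Low-IEG corticotrope-like cells still stood above the other hormone classes in 6 of the 7 genes. Dbp stood higher by 2.70 on the log2 scale, Ciart by 3.16, Per3 by 1.89, Cry2 by 1.75, Per1 by 1.38 and Nr1d1 by 1.36. Cry1, at 0.53, lost its call (edgeR adjusted p = 0.358). Over all genes 2187 were called in that comparison, against 3628 in all cells. In stem-like cells Dbp kept 2.40, Per2 2.63 and Nr1d1 1.55, while Per1 stood at -0.27 and no longer passed, with an edgeR adjusted p of 0.388, against 0.92 in all cells. Ciart stood at 0.98 there and lost its call (edgeR adjusted p = 0.0964), and Cry1 was still lower, by -1.05. The level of Ciart in low-IEG corticotrope-like cells was 20.4 ± 10.3 CPM, within the range of the macrophage-like cells, which had 0 and 42.3 CPM.

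The 2 arms of the clock were then set against each other over the classes. Each arm index is the mean over its genes of log2(CPM + 1), taken relative to the gene's mean over classes. The activator arm held Arntl and Clock, and the repressor and output arm the other 8 genes. Corticotrope-like cells had the highest repressor and output index, 1.40, with an activator index of 0.15, and stem-like cells had 0.99 and -0.20. Melanotrope-like cells lay at the other corner, with an activator index of 0.84 and a repressor and output index of -0.81. Over the 11 classes Pearson's r was -0.243 and Spearman's rho -0.182, given as a description, since the classes share 2 libraries and differ in depth.

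The sign of this relation did not hold between the pools. In library 1 alone r was -0.453, and in library 2 alone it was 0.196. Macrophage-like cells of library 2 had 0 UMIs of Arntl and an activator index of -1.27, and their part in the change of sign was not tested. With both libraries, r was -0.441 over the 8 classes that had 100 cells or more per library. Without corticotrope-like and stem-like cells r was -0.519, and with Npas2 added to the activators it was -0.0495. With totals free of hormone transcripts it was 0.00212. Between single genes, Nr1d1 and Dbp ran most alike over the classes (r = 0.907), followed by Cry2 and Ciart (r = 0.805).

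**Figure D5:**
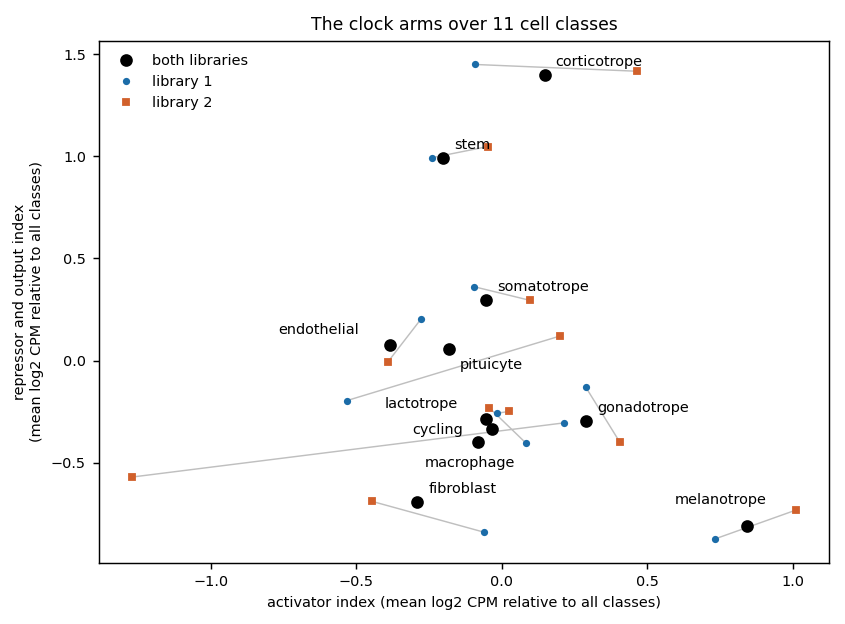
Activator index (x axis) against repressor and output index (y axis), in mean log2 units relative to all classes, for 11 cell classes. Black points use both libraries, and small points joined by a line show each library alone. Corticotrope-like cells lie at 1.40 and melanotrope-like cells at -0.81 on the y axis.

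The largest median log2 difference between the pools (library 2 over library 1) was 0.29, for Per1. Per1 was higher in library 2 in 8 of 11 classes, and 24.2% of all genes tested were one-sided in at least as many. Per2 had a median of 0.27 and was higher in library 2 in 6 classes. Ciart had a median of 0.19 and was higher in library 2 in 7. Cry2 was higher in library 2 in 10 of 11 classes, with a median log2 difference of 0.18 (library 2 over library 1), and 2.33% of all genes tested were one-sided in at least as many classes. Nr1d1 was higher in library 2 in 9 classes, with a median of 0.17, and Dbp was higher in library 1 in 9, with a median of -0.19. A count of 9 or more in one direction occurred in 8.6% of all genes tested. The summed immediate early level was higher in library 2 in all 11 classes, with 3711 CPM in library 2 and 2517 CPM in library 1 of the somatotrope-like cells, and its part in these differences was not tested. With 1 library per pool there is no test of pool against pool.

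Among 8635 genes searched for a like pattern over the 11 classes, ranked by the smaller of the correlations in the 2 libraries, the nearest to Dbp were Nr1d2 (0.871), the paralogue of Nr1d1, and Tef (0.866), another PAR factor. The nearest to Ciart were Hsph1 (0.832), Mapk6 (0.832) and Hspa8 (0.829), of which the first and last encode heat shock proteins. The nearest to Per1 was Fosl1 (0.802), of the FOS family, then Slc25a25 (0.792). Nr1d1 was nearest to Magi3 (0.858) and Hey1 (0.851), Cry1 to Ppm1l (0.911), Per3 to Prr12 (0.815), Per2 to Slc39a12 (0.807) and Cry2 to Coq10b (0.797). The activators had weaker neighbours, Dnajc19 (0.679) for Arntl and Cox4i1 (0.775) for Clock.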

How the data were processed

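Per the submitters' processing notes, the authors used Cell Ranger and STAR with mm10, and the deposited matrix holds raw UMI counts per gene and barcode. The number at the end of a barcode was taken as the pool. Barcodes under 500 UMIs, under 250 genes or over 20% mitochondrial UMIs were dropped, which left 6505 of 6546 and 7060 of 7117. Scrublet called 0 doublets in each library, so the 7.6% with the highest scores, 494 and 537, were removed, the multiplet rate in the labels. Cells were clustered (scanpy 1.11.5, Leiden resolution 1) on the marker genes, and a class needed 3 markers; the limits for mixed clusters and for shared leading genes were chosen with the data in view. The same class resulted for 95.5% of 11840 cells when 2000 variable genes were used instead. Counts were summed per class and library, and 22 columns were fitted with edgeR 4.0.16 (quasi-likelihood, robust, TMM, filterByExpr, library as a block, 10 residual degrees of freedom), with Benjamini-Hochberg adjustment over 12297 genes at 0.05. The 88 markers and hormone genes were left out of the tests. High-IEG and low-IEG cells were fitted in 44 columns with 11367 genes, with a library term for each class and 11 residual degrees of freedom. That pairs the 2 sets of cells within class and library. On simulated counts for the stem-like comparison, 93 of 100 genes changed by 1 log2 unit were recovered among 10833 genes. That simulation also held 98 genes changed by 2 log2 units, and 12 of its 203 calls were false. The share recovered for genes as low as Per2 was not tested. Counting intervals are exact Poisson or binomial and cover counting error only. The members and lists were chosen with earlier results of these data known. Named genes are the members, their 3 nearest genes by likeness, and up to 4 called genes per list. No label says which animals shared a pool number beyond the 2 pools. In the fit of 22 columns the p-values rest on how far class differences varied between the 2 pools, with the estimate of spread shared over classes. They do not measure the spread between animals.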

Additional observations from a re-analysis of the deposited data

How the results depend on the processing

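Of 79 member calls over 14 comparisons, between 73 and 78 were kept, and 1 to 6 gained, under DESeq2, totals free of hormone transcripts, no filter on low counts, both other Leiden resolutions (resolution 0.5 covers 78 of the calls), variable genes, kept doublets and cells over 30% Gh left out. In the low-IEG cells alone, which are fewer, 52 were kept and 2 gained. Without the library as a block, the pairing of classes by replicate, 77 were kept and 0 gained. Of the 79 calls, 10 come from the test for any difference among classes, which 93% of all genes passed. The share of calls kept over all genes is not given, so the counts kept describe the members alone. In the low-IEG cells the members called were 4 for somatotrope-like (8 in all cells), 3 for lactotrope-like (5), 4 for gonadotrope-like (7), 3 for melanotrope-like (5), 3 for endothelial-like (6), 4 for stem-like cells (8), 5 for melanotrope- against corticotrope-like (8) and 3 for lactotrope- against somatotrope-like cells (6). Calls over all genes fell there too, to 2867 for gonadotrope-like (4387), 2187 for corticotrope-like (3628) and 1298 for melanotrope-like cells (2278). They were 1806 for pituicyte-like cells (2716) and 1364 for melanotrope- against corticotrope-like cells (2533). For the other comparisons they are not given, so the fall in member calls is not read as a result about the clock genes. Elsewhere, variable genes gave 4 members in cycling cells (2), totals free of hormone transcripts 6 in macrophage-like cells (3), DESeq2 2 in pituicyte-like cells (1), and leaving out cells over 30% Gh 2475 genes in cycling cells (4430). Over all genes, totals free of hormone transcripts gave 5554 calls in macrophage-like cells (3906), and DESeq2 gave 2573 in pituicyte-like cells (2716). The changes in member counts are therefore not read as results about the clock genes. Ciart turned in lactotrope-like against other hormone classes when doublets were kept, to -0.54 (edgeR adjusted p = 0.0121), against 0.07 (0.89), and Per1 in stem-like cells turned to -0.27 in the low-IEG cells; the cause was not tested. Leaving out a library left no residual degrees of freedom, so those are values with no test: the arm correlation ranged from -0.453 to 0.196. Few cells or UMIs limit pituicyte-like cells, Per2 and Arntl most.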
